A study of Mus musculus with 4 samples.

Results

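Transcripts of myeloid cells and neutrophils were measured in CD4 T-cell preparations from mouse spleen, on 4 Affymetrix Mouse Gene 1.0 ST arrays. The 10 genes followed are taken from 19937 genes that had a probe set naming that gene alone. Of these, 3 mark neutrophils (S100a8, S100a9 and Retnlg) and 7 mark other myeloid cells (Lyz2, Csf1r, Cd68, Itgam, Itgax, Tyrobp and Fcer1g). All 10 are widely used markers and were chosen by name, each was measured by exactly 1 such probe set, and none was lost to a filter. There were 2 arrays from wild-type (WT) mice and 2 from IfitmF-/- mice, in which the whole Ifitm family of interferon-inducible transmembrane protein genes is deleted in every cell of the animal. The IfitmF-/- line is described as being on a C57BL/6 background. The labels give adult mice of 6 to 8 weeks in both groups. Spleen suspensions of both genotypes were treated with ammonium chloride, which lyses red cells, and CD4 cells were enriched by negative selection, in which antibodies and magnetic beads remove the other cell types. The cells were neither activated nor cultured, and each array took RNA of cells from a pair of mice, pooled. The question was how the 10 genes lay on each array and whether they differed between the genotypes.

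Neutrophils and the cells of the monocyte, macrophage and dendritic lineages arise from common progenitors in the bone marrow. The spleen holds all of them, with a large population of red pulp macrophages that recycle iron from aged red cells. Negative selection leaves the wanted cells untouched by antibody, and the purity of the product rests on how completely the other cells are labelled and removed. T cells do not normally transcribe most of the 10 genes to any extent, although activated T cells can use some of them, such as Itgam and Itgax. In RNA of a whole preparation, fewer cells of a type and less RNA per cell cannot be told apart.

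The labelled cell type had its defining transcripts. Cd3e, a chain of the T-cell receptor complex, measured 12.08 and 12.15 in WT and 12.14 and 12.07 in IfitmF-/- (log2 intensity, here and throughout, with replicate 1 before replicate 2). Cd4 measured 11.44 and 11.52 in WT and 11.79 and 11.71 in IfitmF-/-. The deleted Ifitm1, Ifitm2 and Ifitm3 were read by 6 probe sets, which lay between 6.54 and 9.26 on the WT arrays and between 4.36 and 6.05 on the IfitmF-/- arrays. That range of 4.36 to 6.05 serves below as a rough guide to the signal left where a transcript is missing. Each probe set has its own background. Ifitm5, of the same deleted family, measured 6.50 and 6.47 in WT and 6.47 and 6.20 in IfitmF-/-. The signal left can therefore lie above that range. Xist, transcribed from the inactive X chromosome, was at 11.32 and 11.25 in WT and at 4.86 and 4.43 in IfitmF-/-. Of the Y chromosome, Eif2s3y, Kdm5d and Uty lay between 3.90 and 4.82 in WT and between 8.32 and 9.61 in IfitmF-/-. Genotype and sex of the animals therefore cannot be told apart in any comparison here. Across probe sets the correlation was 0.993 between the WT arrays, 0.991 between the IfitmF-/- arrays and 0.976 to 0.979 across genotypes.

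The stretches just upstream of the transcription start are shown for Retnlg, Lyz2, S100a8 and S100a9, because these are the 4 genes of the 10 whose arrays did not overlap between the genotypes. Each is the 250 bases before the start in RefSeq (GRCm38.p6), read in the direction of transcription. They lie at chr16:48872358-48872607 on the plus strand (Retnlg), chr10:117282273-117282522 on the minus strand (Lyz2), chr3:90668821-90669070 on the plus strand (S100a8) and chr3:90695722-90695971 on the minus strand (S100a9). Capitals mark the letters GCAAT, a core bound by C/EBP factors, and GAGGAA, a core bound by the factor PU.1, with the reverse complements ATTGC and TTCCTC.
Retnlg: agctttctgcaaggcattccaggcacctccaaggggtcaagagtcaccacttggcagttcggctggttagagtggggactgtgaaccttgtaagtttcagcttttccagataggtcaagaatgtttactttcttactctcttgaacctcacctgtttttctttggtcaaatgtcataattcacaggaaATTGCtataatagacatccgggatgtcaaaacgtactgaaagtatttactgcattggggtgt
Lyz2: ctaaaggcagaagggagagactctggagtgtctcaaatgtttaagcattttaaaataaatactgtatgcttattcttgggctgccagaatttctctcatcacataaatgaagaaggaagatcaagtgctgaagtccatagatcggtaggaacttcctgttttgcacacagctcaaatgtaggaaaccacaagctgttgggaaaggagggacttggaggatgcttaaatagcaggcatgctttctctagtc
S100a8: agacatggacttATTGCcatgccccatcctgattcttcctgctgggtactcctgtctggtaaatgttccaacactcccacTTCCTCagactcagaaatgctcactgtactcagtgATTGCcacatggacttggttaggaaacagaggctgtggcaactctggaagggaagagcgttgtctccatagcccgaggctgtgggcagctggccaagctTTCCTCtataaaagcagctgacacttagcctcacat
S100a9: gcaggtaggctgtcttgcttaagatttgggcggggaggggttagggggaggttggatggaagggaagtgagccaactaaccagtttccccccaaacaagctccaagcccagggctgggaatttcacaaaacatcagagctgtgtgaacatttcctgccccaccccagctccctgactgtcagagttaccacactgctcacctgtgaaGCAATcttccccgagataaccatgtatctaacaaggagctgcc
RefSeq windows were found for 8 of the 10 genes. GCAAT or its complement stood in the windows of Retnlg, S100a8 and S100a9, the 3 neutrophil genes, and in no other of the 8. It stood in 23.1% of 32851 windows of the same length. GAGGAA or its complement stood in the windows of S100a8, Cd68 and Itgam, and in 23.3% of all windows. The Lyz2 window held neither. A match of so few letters is a description of the sequence, not a binding site.

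Among the neutrophil genes, Retnlg was higher in IfitmF-/- preparations and passed the test, while S100a8 and S100a9 did not. Retnlg, a resistin-like secreted protein of neutrophils and bone marrow, measured 5.24 and 5.25 in WT and 6.94 and 7.21 in IfitmF-/-. Both WT arrays lay inside the range of the deleted Ifitm probe sets and both IfitmF-/- arrays above it. The difference of 1.83 (95% interval 1.51 to 2.14, 3.55-fold) passed limma's test over all 34760 probe sets (adjusted p = 0.0136). Because the WT values may be no more than background, this fold is not a measured ratio of transcript levels and may be a lower bound. On the linear scale the gene moved from 37.9 and 38.0 units to 123 and 148 units, and its range of 110 units over the 4 arrays is below the 250 units that the study's own filter asked for. The share of probe sets dimmer than Retnlg was 30.5% and 30.4% in WT and 60.6% and 63.8% in IfitmF-/-. The call was lost when any 1 array was left out (adjusted p of 0.0681 to 0.114), where no probe set of the whole table passed either, and with the replicate number as a block (adjusted p = 0.0624). Its difference stayed between 1.69 and 1.96 without each array in turn.

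S100a8 encodes one chain of calprotectin, the calcium- and zinc-binding complex that makes up much of the neutrophil cytosol. It measured 4.98 and 4.86 in WT and 5.08 and 5.28 in IfitmF-/-. All 4 arrays lay inside the range of the deleted Ifitm probe sets, and the IfitmF-/- arrays stood just above the WT arrays. The difference of 0.26 (95% interval -0.036 to 0.55) did not pass (adjusted p = 0.233). S100a9, the partner chain, measured 5.43 and 5.57 in WT and 5.67 and 5.59 in IfitmF-/-. Its arrays also lay inside that range, and the lower IfitmF-/- array cleared the higher WT array by less than the arrays of a genotype differed from each other. The difference of 0.13 (95% interval -0.12 to 0.38) did not pass (adjusted p = 0.458). Both genes are among the most abundant transcripts of mature neutrophils. Between 22.8% and 39.3% of probe sets were dimmer than S100a8 or S100a9 on any array. The 3 neutrophil genes had a median difference of 0.26, against -0.016 over all probe sets, and their summed linear intensity was 113 and 115 units in WT and 208 and 235 units in IfitmF-/-. Of that sum S100a8 and S100a9 together made up 74.7 and 76.6 units in WT and 84.8 and 86.9 units in IfitmF-/-, and Retnlg the rest.

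Of the 7 other myeloid genes none passed the test, and Lyz2 came closest. Lyz2, the lysozyme of macrophages and granulocytes, measured 9.16 and 8.59 in WT and 9.81 and 10.62 in IfitmF-/-. Both IfitmF-/- arrays lay above both WT arrays, but the arrays of a genotype differed by 0.57 in WT and by 0.80 in IfitmF-/-. The means were 8.87 ± 0.40 and 10.22 ± 0.57 (SD, n = 2), a difference of 1.34 (95% interval 0.43 to 2.26, 2.54-fold) that did not pass the correction (adjusted p = 0.0942). It passed in a fit that paired WT replicate 1 with IfitmF-/- replicate 2 (adjusted p = 0.0439), a pairing chosen after seeing the data; over the other alternatives with a limma fit the adjusted p was 0.0535 to 0.323. Without each array in turn the difference ran from 0.94 to 1.74. The lysozyme family was read as well. Lyz1, the close relative best known from Paneth cells, measured 7.64 and 7.02 in WT and 7.62 and 7.89 in IfitmF-/-. Its genotypes overlapped, with IfitmF-/- replicate 1 just under WT replicate 1, and its high array within each genotype was that of Lyz2. None of the 6 family members on the array passed, where 8.43% of all probe sets did. Of these 6, 5 had a mean below 6 and 4 reached 6 on no array, so the lack of a call says little for most of the family. The sequences of Lyz1 and Lyz2 are alike enough that their probe sets may share transcripts.

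Csf1r and Cd68 differed more between the arrays of a genotype than between the genotypes. Csf1r, the receptor for the growth factor that keeps monocytes and macrophages alive, measured 10.71 and 9.70 in WT and 9.52 and 10.62 in IfitmF-/-. WT replicate 1 was 2.02-fold above WT replicate 2, and IfitmF-/- replicate 2 was 2.15-fold above IfitmF-/- replicate 1, on the linear scale. The genotypes overlapped, with a difference of -0.13 (95% interval -1.51 to 1.24, adjusted p = 0.898). Cd68, a glycoprotein of macrophage lysosomes, measured 9.82 and 9.15 in WT and 8.60 and 9.70 in IfitmF-/-. Again WT replicate 1 and IfitmF-/- replicate 2 were the high arrays, 1.59-fold and 2.14-fold above the other array of their genotype. The difference between the genotypes was -0.33 (95% interval -1.52 to 0.85, adjusted p = 0.683). These intervals include changes of more than 2-fold in either direction for Csf1r, so the arrays set no narrow limit on it.

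The adaptors Tyrobp and Fcer1g had the same high array within each genotype as Csf1r and Cd68. Tyrobp (DAP12) carries an activation motif into the cell for receptors of myeloid and NK cells. It measured 10.30 and 9.50 in WT and 9.87 and 10.62 in IfitmF-/-. The high array of each genotype lay 0.79 and 0.74 above the other, and the difference between the genotypes of 0.35 (95% interval -0.66 to 1.35) did not pass (adjusted p = 0.613). Fcer1g, the common gamma chain of Fc receptors, measured 11.74 and 11.11 in WT and 11.14 and 12.08 in IfitmF-/-. Its high arrays were again WT replicate 1 and IfitmF-/- replicate 2, by 0.63 and 0.95, with a difference of 0.19 between the genotypes (95% interval -0.86 to 1.24, adjusted p = 0.805).

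The integrin chains Itgam and Itgax, which pair with Itgb2 to form CD11b/CD18 and CD11c/CD18, were closer on the 4 arrays. Itgam, used to mark monocytes, macrophages and neutrophils, measured 6.50 and 6.24 in WT and 6.33 and 6.38 in IfitmF-/-. The 4 values spanned 0.26, and the genotypes overlapped (difference -0.0099, 95% interval -0.32 to 0.30, adjusted p = 0.969). A change of the size seen for Retnlg lies outside the interval. The Itgam values were near those of Ifitm5 on the IfitmF-/- arrays (6.47 and 6.20), so they may be no more than background. The interval would then set no limit on a change of the transcript. Probe sets naming both Rpl35 and Itgam were left out, because they may read the ribosomal protein gene. Itgax, the usual marker of dendritic cells, measured 7.28 and 6.61 in WT and 6.49 and 6.87 in IfitmF-/-. WT replicate 1 and IfitmF-/- replicate 2 were the higher arrays of Itgax too, by 0.67 and 0.39, and the difference of -0.27 (95% interval -0.998 to 0.47) did not pass (adjusted p = 0.595). Their partner Itgb2, which T cells also use, measured 11.55 and 11.32 in WT and 11.50 and 11.57 in IfitmF-/-. None of the 5 members of this integrin family passed, where 8.43% of all probe sets did. The median difference of the 7 other myeloid genes was -0.0099, against -0.016 over all probe sets.

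**Figure D1:**
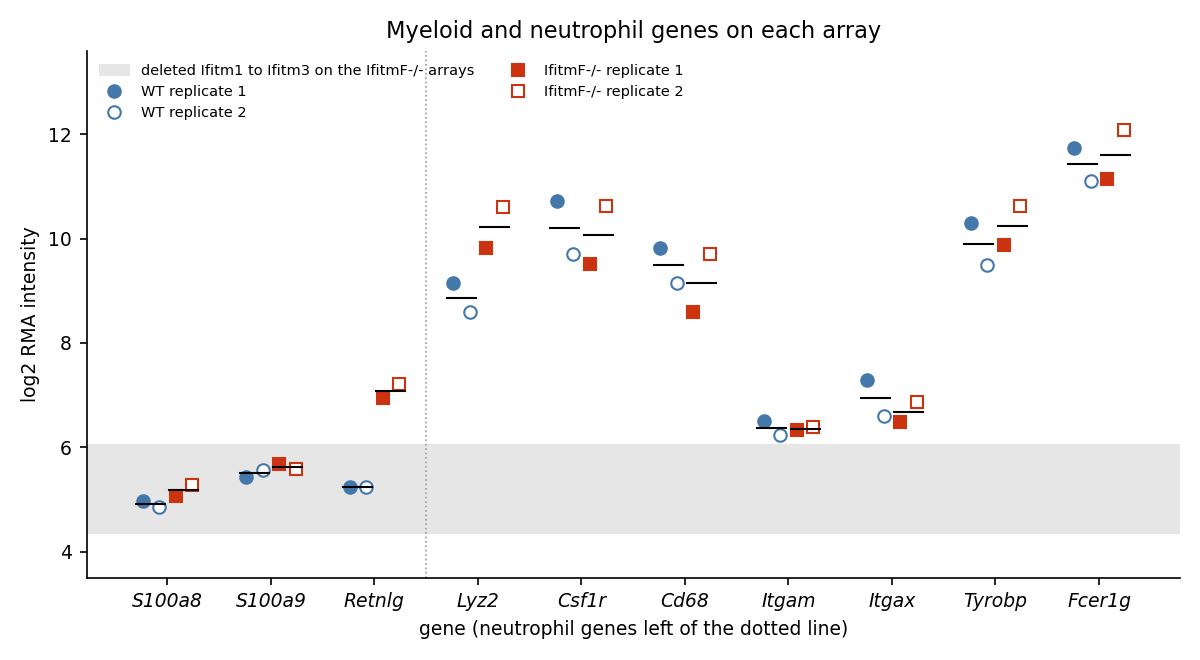
Log2 RMA intensity of each gene on each of the 4 arrays, with circles for WT, squares for IfitmF-/-, filled symbols for replicate 1, open symbols for replicate 2 and black bars for group means; the grey band is the range of 4.36 to 6.05 of the deleted Ifitm1 to Ifitm3 probe sets on the IfitmF-/- arrays. S100a8 and S100a9 lie inside the band on every array, Retnlg leaves it on the IfitmF-/- arrays, and for Csf1r, Cd68, Itgax, Tyrobp and Fcer1g the filled circle and the open square are the high arrays.

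In all, 1 of the 10 genes was called, in the direction of IfitmF-/- (Retnlg). Over all probe sets limma called 8.43%, of which 4.48% of all were higher and 3.95% lower in IfitmF-/-, so 1 gene in 10 is close to the share of the whole table. The arrays of the genotypes did not overlap for 4 of the 10 genes, all with IfitmF-/- higher. This held for 57.5% of all probe sets in either direction and for 27.5% with IfitmF-/- higher. With 2 arrays against 2, the smallest p that an exact two-sided permutation test can give is 0.333, so the calls rest on limma's pooling of the spread over probe sets.

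**Figure D2:**
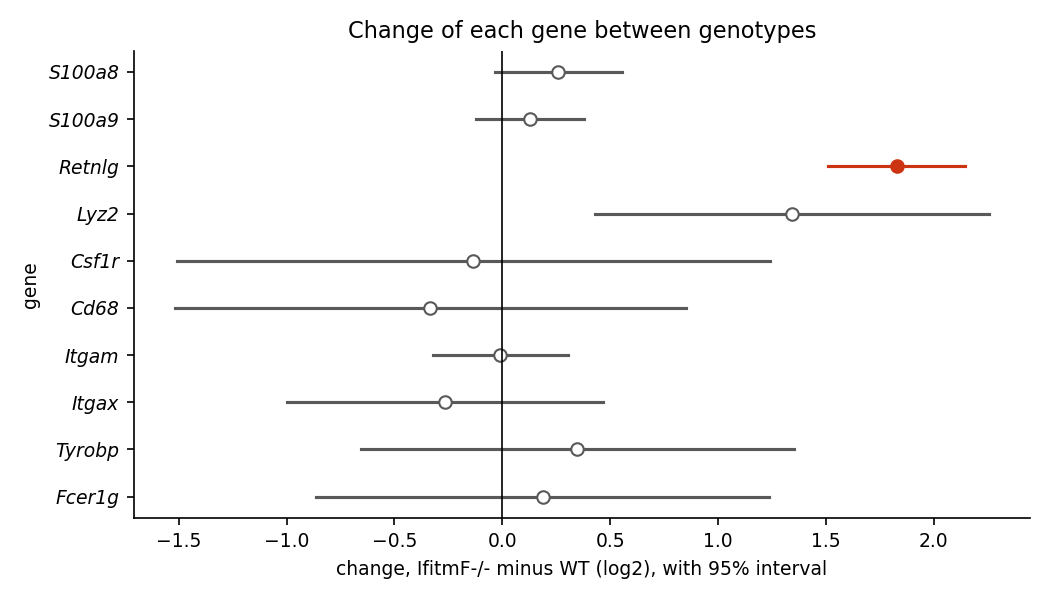
Difference between the genotypes for each gene (IfitmF-/- minus WT, log2) with limma's 95% interval, filled red where the adjusted p passed and open where it did not. The interval of Retnlg (1.51 to 2.14) is narrow and far from 0, that of Lyz2 (0.43 to 2.26) is wide and lies above 0, and those of the other 8 genes include 0.

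The high array of Csf1r within each genotype was also that of the other myeloid genes and of most markers of splenic macrophages. All 7 other myeloid genes had WT replicate 1 above WT replicate 2 and IfitmF-/- replicate 2 above IfitmF-/- replicate 1. For 5 of them, Lyz2, Csf1r, Cd68, Tyrobp and Fcer1g, both steps reached 0.5, a size chosen after the values were seen. Of all probe sets 0.923% had both steps. Of the neutrophil genes none did, and S100a9 had both steps the opposite way, by 0.14 and 0.089. S100a8 and S100a9 lay in the range of the deleted Ifitm probe sets on every array, and Retnlg did on the WT arrays. A step in their transcripts might therefore not show. The summed linear intensity of the 7 genes was 8067 and 4887 units in WT and 5381 and 10085 units in IfitmF-/-. The genotypes thus overlapped in this sum. The sum over the 3 neutrophil genes did not overlap, and most of its difference came from Retnlg. S100a8 and S100a9 together did not overlap either, at 74.7 and 76.6 units in WT and 84.8 and 86.9 units in IfitmF-/-, values that may be no more than background.

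Among 22 measured genes of splenic macrophages, such as Adgre1 and the complement genes C1qa to C1qc, 17 had both steps of 0.5 or more. Their summed linear intensity was 20457 and 11666 units in WT and 10495 and 22863 units in IfitmF-/-. In median the macrophage genes stepped by 0.74 between the WT arrays and by 1.07 between the IfitmF-/- arrays. The median step over all probe sets was -0.010 and -0.0092. Relative to the mean of the macrophage genes on the same array, Csf1r lay 1.81 and 1.47 above it in WT and 1.36 and 1.52 above it in IfitmF-/-, and Fcer1g lay 2.83 to 2.98 above it on all 4 arrays. Lyz2 went from 0.25 and 0.36 above that mean in WT to 1.66 and 1.51 above it in IfitmF-/-, so its arrays of a genotype came closer together while the genotypes stayed 1.28 apart. Retnlg stood at -3.66 and -2.98 relative to that mean in WT and at -1.22 and -1.90 in IfitmF-/-. It remained 1.76 higher in IfitmF-/- on this scale, while its arrays of a genotype moved further apart. No test was run on these ratios, because the scale was chosen with the values in view.

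**Figure D3:**
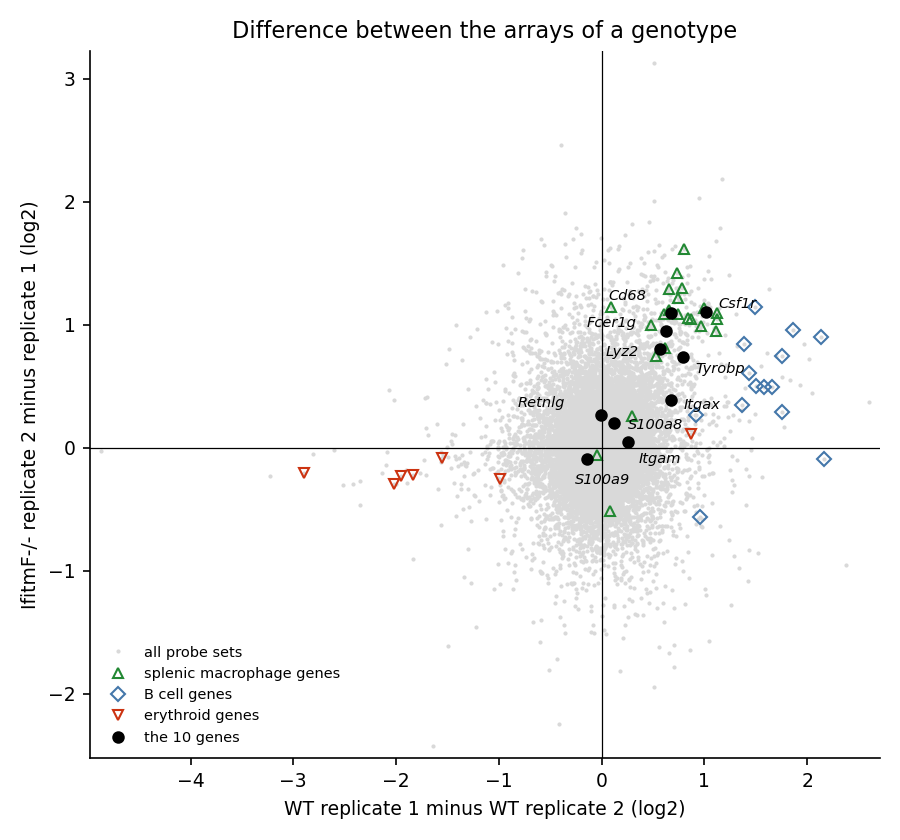
Step between the arrays of a genotype for every probe set (grey), with WT replicate 1 minus WT replicate 2 on the horizontal axis and IfitmF-/- replicate 2 minus IfitmF-/- replicate 1 on the vertical axis, both log2; black points are the 10 genes and open symbols are genes of splenic macrophages, B cells and erythroid cells. Lyz2, Csf1r, Cd68, Tyrobp and Fcer1g lie in the upper right among the macrophage genes, where both steps reach 0.5, and the 3 neutrophil genes and Itgam lie near the centre.

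The genes whose centred values lay nearest to the members over the 4 arrays are given as a description, since likeness in profile fixes how they lay between the genotypes. The mean profile of the 7 other myeloid genes was nearest to Aldh2, Dock4, Nfam1, Nav1, Rab32, Tcf7l2, Pla2g4a and Arhgap32, at root mean square distances of 0.018 to 0.051, where the profile itself has a root mean square of 0.358. Dock4, an exchange factor for Rac, measured 7.02 and 6.45 in WT and 6.54 and 7.30 in IfitmF-/-. None of these 8 genes was called. Csf1r was nearest to Pld4, Trf, Hmox1, Dnase1l3 and Cd163. Hmox1, the haem oxygenase of red pulp macrophages, measured 11.44 and 10.32 in WT and 10.17 and 11.22 in IfitmF-/-. Cd68 was nearest to Slc7a7, Hcar2, Cd5l, Tgfbi and Itgad, and Tyrobp to Rassf4, Sash1, Fgr, Clec4a2 and Alox5ap. Cd163, the haemoglobin scavenger receptor, and Cd5l, a secreted protein of macrophages, belong to the macrophage list.

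Lyz2 was nearest to Idh1, Ppbp, Etfbkmt, Rgs18 and Ccl6, at 0.082 to 0.163. Ppbp, the most abundant chemokine of platelets, measured 11.38 and 10.67 in WT and 11.80 and 12.90 in IfitmF-/-, the same order of the 4 arrays as Lyz2. Ccl6, a chemokine of myeloid cells, measured 7.63 and 7.12 in WT and 8.30 and 8.74 in IfitmF-/-. None of the 5 was called. The mean profile of the 3 neutrophil genes was nearest to Zfp322a, Ccdc130, S1pr4, Cbr1, Ndufs4, Dpy30, Arl14ep and Shprh, and Retnlg by itself to Zfp931, Zfp873, Zfp759, Zfp738 and Zfp763. All 13 were called higher in IfitmF-/-, which the likeness to Retnlg brings with it. Zfp931, a zinc finger gene, measured 5.47 and 5.26 in WT and 7.07 and 7.22 in IfitmF-/-. None of the 13 is in the neutrophil lists.

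Of 29 further genes of neutrophil granules and surface that were measured, 0 were called higher and 1 was called lower by limma, near the shares of 4.48% and 3.95% over all probe sets, and the median difference was 0.033. At an unadjusted p under 0.05, 2 were higher and 2 lower, where 13.8% of all probe sets were higher and 12.6% lower. The arrays did not overlap for 8 genes with IfitmF-/- higher and for 5 with IfitmF-/- lower, which held for 27.5% and 30% of all probe sets. Pglyrp1, a peptidoglycan-binding protein of neutrophil granules, measured 8.30 and 8.03 in WT and 8.45 and 8.80 in IfitmF-/- (adjusted p = 0.184). No array reached a log2 intensity of 6 for 16 of the 29. Ly6g, the surface antigen used to sort mouse neutrophils, measured 4.73 and 4.73 in WT and 5.13 and 4.81 in IfitmF-/-, and Cxcr2, their chemokine receptor, 4.44 and 4.46 against 4.72 and 5.30. These values lie in the range of the deleted Ifitm probe sets. Il1r2, the decoy receptor for interleukin-1, which neutrophils and some T cells carry, fell by 1.61 in IfitmF-/- (6.75 and 6.85 in WT, 5.18 and 5.20 in IfitmF-/-, adjusted p = 0.0115). Mmp8, the collagenase of neutrophil granules, measured 3.85 and 3.76 in WT and 4.14 and 4.14 in IfitmF-/- (adjusted p = 0.0905). Ifitm6, which belongs to the deleted family, measured 5.80 and 5.29 in WT and 4.59 and 4.73 in IfitmF-/- (adjusted p = 0.0706). The summed linear intensity of the list was 1891 and 2200 units in WT and 1791 and 2227 units in IfitmF-/-, with overlap. Ifitm6 is part of this sum and is counted above among the lower genes, though it was not called. The gene itself is deleted in IfitmF-/- mice, so its lower values there carry no information on neutrophils. The counts of lower genes in this list are to be read with that in mind.

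Relatives of the neutrophil genes were read as well. The other resistin-like genes Retn, Retnla and Retnlb had no call, where 8.43% of all probe sets were called. All 3 had negative differences, but none of them reached 6 on any array, so their signal may be no more than background. Retn measured 5.82 and 5.88 in WT and 5.28 and 5.44 in IfitmF-/- (adjusted p = 0.0564), a difference of -0.48 with the opposite sign to that of Retnlg. The Retn values lay inside the range of the deleted Ifitm probe sets on every array, so they set no limit on a change of its transcript. Of 15 further genes of the S100 list 1 was called, where 8.43% of all probe sets were. This gene, S100pbp, encodes a protein that binds S100P and is no S100 protein itself. It measured 7.48 and 7.24 in WT and 8.19 and 8.19 in IfitmF-/- (adjusted p = 0.0290). S100a11 measured 11.24 and 11.24 in WT and 11.61 and 11.58 in IfitmF-/- (adjusted p = 0.0683). None of the S100 genes had both steps of 0.5 between the arrays. In the S100 list the arrays did not overlap for 7 genes with IfitmF-/- higher and 3 with it lower, against 27.5% and 30% of all probe sets.

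Monocyte genes showed both patterns. Of 20 measured, 4 were called higher in IfitmF-/- and 0 lower, where 4.48% of all probe sets were called higher and 3.95% lower. The median difference was 0.19. Ccl9, a chemokine of myeloid cells, measured 6.65 and 6.64 in WT and 7.82 and 7.69 in IfitmF-/- (2.15-fold, adjusted p = 0.0144). Ms4a4c, an interferon-responsive membrane gene that lymphocytes also use, measured 8.98 and 8.69 in WT and 10.01 and 10.14 in IfitmF-/- (2.36-fold, adjusted p = 0.0208). Ccr2, the receptor that brings monocytes out of the marrow and that memory T cells carry too, measured 6.96 and 6.77 in WT and 7.96 and 7.81 in IfitmF-/- (2.03-fold, adjusted p = 0.0212). F13a1, the coagulation factor XIII subunit of monocytes and platelets, measured 6.19 and 6.22 in WT and 6.81 and 7.04 in IfitmF-/- (1.65-fold, adjusted p = 0.0361). For these 4 genes the arrays of a genotype lay close together, as for Retnlg, which a call favours. Of the 20 monocyte genes, 8 instead had both steps of 0.5 or more, as Csf1r did, and none of those 8 was called. Steps of this size enlarge the spread in the test, so the lack of a call follows in part from the choice. The summed linear intensity of the list was 7165 and 4865 units in WT and 5848 and 9195 units in IfitmF-/-.

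Of the 22 splenic macrophage genes 1 was called, where 8.43% of all probe sets were. Cd36, a scavenger receptor that platelets carry as well, measured 6.98 and 6.69 in WT and 7.60 and 7.86 in IfitmF-/- (difference 0.90, adjusted p = 0.0430). Marco, the scavenger receptor of marginal zone macrophages, measured 6.46 and 6.50 in WT and 6.26 and 6.20 in IfitmF-/- (adjusted p = 0.146). Trem2, a receptor that signals through Tyrobp, measured 6.90 and 6.82 in WT and 6.77 and 6.26 in IfitmF-/- (adjusted p = 0.336). Cd36, Marco and Trem2 are 3 of the 5 macrophage genes that lacked the 2 steps of 0.5, with Clec7a and Msr1. The median difference between the genotypes over the list was 0.086.

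Of 22 measured receptors that signal through Tyrobp or Fcer1g none was called, where 8.43% of all probe sets were. At an unadjusted p under 0.05, 3 were higher and 0 lower, against 13.8% and 12.6% of all probe sets. Fcer1a, the IgE-binding chain that pairs with Fcer1g on basophils and mast cells, measured 4.68 and 4.53 in WT and 5.09 and 5.16 in IfitmF-/- (adjusted p = 0.0505). Klrk1 (NKG2D), which pairs with adaptors of this kind on NK cells, measured 6.71 and 6.51 in WT and 6.96 and 6.95 in IfitmF-/- (adjusted p = 0.123). Ncr1, an NK-cell receptor that uses Fcer1g, measured 7.21 and 6.75 in WT and 8.05 and 7.40 in IfitmF-/- (adjusted p = 0.189). Both steps of 0.5 were present in 6 of the 22. No array reached 6 for 9 of them.

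Among dendritic cell genes and factors of the myeloid programme, each call was a fall. Of 19 dendritic cell genes 0 were called higher and 2 lower, where 4.48% of all probe sets were called higher and 3.95% lower. Their median difference was -0.20. The arrays did not overlap for 2 genes with IfitmF-/- higher and 7 with it lower, against 27.5% and 30% of all probe sets. Ccr7, the receptor that guides dendritic cells and naive T cells into lymphoid tissue, measured 12.99 and 13.03 in WT and 12.14 and 12.14 in IfitmF-/- (adjusted p = 0.0161). Cd83, carried by mature dendritic cells and activated lymphocytes, measured 10.25 and 9.87 in WT and 8.04 and 8.68 in IfitmF-/- (adjusted p = 0.0374). Ccr9, a homing receptor of plasmacytoid dendritic cells and T cells, measured 8.32 and 7.66 in WT and 9.25 and 9.23 in IfitmF-/- (adjusted p = 0.0530). Of 18 growth factor receptors and transcription factors of myeloid cells, 0 were called higher and 1 lower, beside the same shares of 4.48% and 3.95%. Their arrays did not overlap for 1 gene with IfitmF-/- higher and 8 with it lower, beside the same shares of 27.5% and 30%. Klf4, a factor of monocyte differentiation that also keeps naive T cells quiescent, measured 9.20 and 9.05 in WT and 7.32 and 7.50 in IfitmF-/- (adjusted p = 0.0133). Cebpb measured 7.41 and 7.20 in WT and 6.85 and 6.65 in IfitmF-/- (adjusted p = 0.0737), and Nfe2 6.80 and 7.003 against 7.29 and 7.50 (adjusted p = 0.0923). Neither Itgax nor Csf1r shared the tight pairs of arrays seen for Ccr7 and Klf4. Those genes were named because they were called, and a call favours tight pairs.

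Transcripts of other cell types moved between the arrays as well. Over all probe sets, limma called 4.48% higher and 3.95% lower in IfitmF-/-. At an unadjusted p under 0.05, 13.8% of limma's tests were higher and 12.6% lower. The arrays did not overlap for 27.5% of probe sets with IfitmF-/- higher and for 30% with IfitmF-/- lower. B cell genes averaged 9.61 and 8.04 in WT and 7.84 and 8.33 in IfitmF-/-, and 7 of 14 had both steps of 0.5, with 0 called by limma and 0 at an unadjusted p under 0.05. Cd74, the class II invariant chain, which macrophages and dendritic cells share with B cells, measured 12.04 and 10.65 in WT and 9.92 and 10.76 in IfitmF-/-. Platelet genes averaged 8.31 and 7.91 in WT and 8.40 and 9.42 in IfitmF-/-, the order of the 4 arrays of Lyz2, with 0 of 8 called and 2 higher at an unadjusted p under 0.05. Erythroid genes averaged 7.67 and 9.15 in WT and 9.84 and 9.68 in IfitmF-/-, with 0 of 7 called and 2 higher at an unadjusted p under 0.05. CD4 T-cell genes averaged 11.04 and 11.07 in WT and 11.22 and 11.20 in IfitmF-/-, and of 15 measured 4 were called higher and 1 lower, with 8 higher and 1 lower at an unadjusted p under 0.05. Of 6 plasma cell genes 1 was called lower (Derl3), and all 6 were lower without overlap and at an unadjusted p under 0.05, with a median difference of -0.69. Of 15 NK cell genes 3 were called lower (Gzmb, Nkg7 and Eomes), and at an unadjusted p under 0.05 there were 4 higher and 4 lower. The part of any of these cell types in the values of Lyz2, Retnlg or the other members was not tested.

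**Figure D4:**
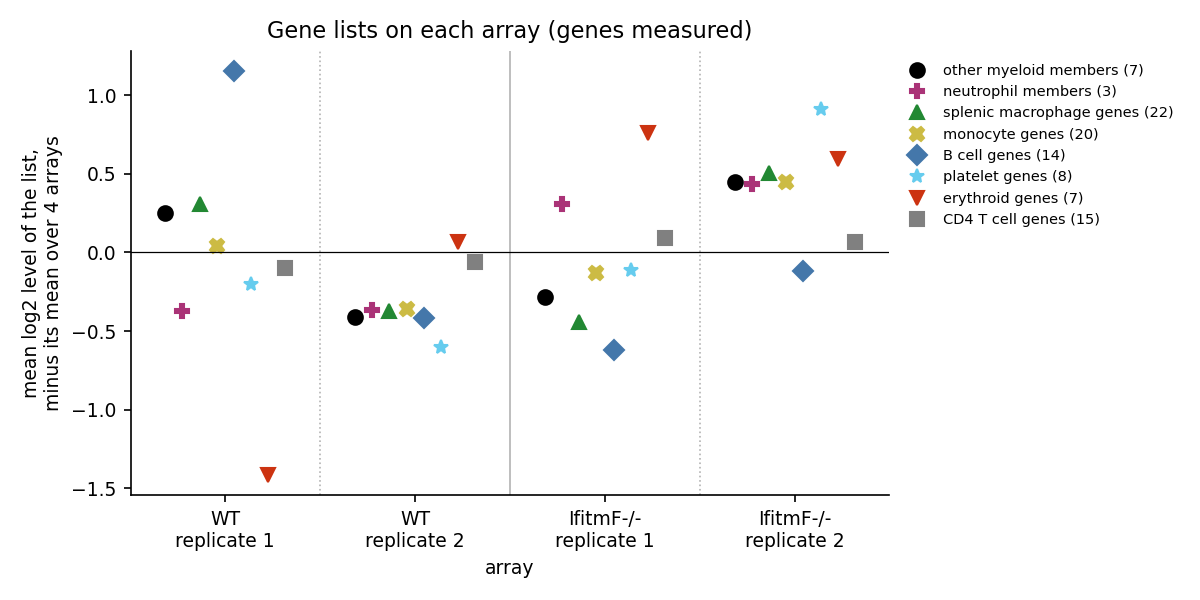
Mean log2 intensity of each gene list on each array, minus the list's own mean over the 4 arrays, with the number of genes measured in brackets. The 7 other myeloid genes (9.36, 8.70, 8.82 and 9.56 before centring) lie beside the splenic macrophage genes on all 4 arrays. The mean of the 3 neutrophil genes (5.22, 5.23, 5.90 and 6.02) separates by genotype, mostly through Retnlg. The erythroid genes are lowest and the B cell genes highest on WT replicate 1.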

How the data were processed

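Total RNA of resting splenic CD4 cells was hybridised to 4 Mouse Gene 1.0 ST arrays, 2 per genotype. The authors deposited RMA intensity values on the linear scale, which are background corrected, quantile normalized and summarised per probe set. The submitters' processing notes name RMA and affy, and no version was found. Before any fit, the deposited intensities were converted to log2. Quantile normalization removes a shift common to all genes, so differences are relative to the whole array. The number of arrays limits the precision. For its p-values limma combined the spread between these preparations with a spread pooled over all probe sets. Each preparation is itself a pool of mice, so the spread between single mice was not measured.

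The genotypes were compared over all 34760 probe sets by lmFit and eBayes of limma 3.58.1 (R 4.3.3) without covariates. P-values were adjusted by the Benjamini-Hochberg method, and probe sets were called at an adjusted p under 0.05. In the platform's annotation 21640 probe sets had a single gene, 1321 had more and 11799 had no gene. By gene ID 21553 received current symbols, and the brightest probe set stood for each of 19937 genes. The 10 genes, the gene lists and the tests were chosen with earlier results of these data known. Named were all members, the 3 genes of smallest p and any called gene of each myeloid list, the most abundant gene of other cell types, relatives of members, and the 8 or 5 nearest profiles by root mean square distance, per member only where it spanned 1 log2 unit. Other genes named were chosen after their values were seen. Lists were described without a list test. Same-numbered arrays share only a number in the labels. The fit was tested on simulated data. Alternatives were renewed quantile normalization, median centring, averaged probe sets, the replicate block, trend and robust eBayes, removal of dim probe sets, 1-gene probe sets, the methods' t-test, the study's filter and leaving out each array. The crossed block and the removal of 1 array per genotype together were chosen after seeing the data.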

Additional observations from a re-analysis of the deposited data

How the results depend on the processing

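Retnlg alone was called, and this count of 1 gene dropped to 0 with the replicate block, without dim probe sets (which removes Retnlg, whose mean is below the median of 6.26), with the methods' t-test after Benjamini-Hochberg adjustment, with the added filter of a fold over 2 and a range of 250 units, and in each leave-one-out fit (0 to 0), where limma called 0 probe sets in all and 6062 to 9107 at an unadjusted p under 0.05. With the replicate block limma called 0 probe sets and 8016 at an unadjusted p under 0.05. In the methods' t-test 4 probe sets passed after adjustment and 6811 before. Deviations of same-numbered arrays correlated at -0.124. This rests on 1 difference between arrays per genotype, so it cannot tell whether same-numbered arrays were handled together. With the pairing crossed, 2 of the 10 genes (Retnlg and Lyz2) and 975 probe sets were called. The study's filter left 403 probe sets. The neutrophil median of 0.26 became 0.74 as a mean over the genes and 0.17 to 0.36 without single arrays. The other myeloid median was -0.29 to 0.42 without single arrays, 0.023 after renewed quantile normalization and 0.033 after median centring, as Itgam was in both. The directions of Cd68 (-0.88 to 0.22), Csf1r (-0.69 to 0.42), Fcer1g (-0.29 to 0.66), Itgam (-0.14 to 0.12), Itgax (-0.60 to 0.071) and Tyrobp (-0.049 to 0.74) turned when single arrays were left out, and those of Retnlg, Lyz2, S100a8 and S100a9 did not. The cause of these shifts was not tested.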

Other observations

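Genes of eosinophils, basophils and mast cells, which share Fcer1g as a signalling chain, were measured for 12 of 15 listed. None was called by limma, while 6 were higher in IfitmF-/- at an unadjusted p under 0.05 and 0 lower, where 13.8% of all probe sets were higher and 12.6% lower, with a median difference of 0.47. Fcer1a and Ms4a2, the alpha and beta chains that join Fcer1g in the IgE receptor, had differences of 0.52 (adjusted p = 0.0505) and 0.43 (adjusted p = 0.0562). Ms4a2 measured 4.88 and 4.99 in WT and 5.36 and 5.38 in IfitmF-/-. Cd200r3, an activating receptor of basophils and mast cells, measured 4.23 and 4.13 in WT and 4.70 and 4.61 in IfitmF-/- (adjusted p = 0.0521). Mcpt8, the basophil protease, measured 5.28 and 5.85 in WT and 6.50 and 7.23 in IfitmF-/- (adjusted p = 0.0898). Fcer1a and Ms4a2 lay inside the range of the deleted Ifitm probe sets on every array, and Cd200r3 lay inside or below it, so their signal is near that left without a transcript. The summed linear intensity of the list was 1335 and 1268 units in WT and 1288 and 2211 units in IfitmF-/-, with overlap.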
